A study of Danio rerio with 6 samples.

Results

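The genes described here encode Wnt ligands, their receptors, the secreted and cytoplasmic proteins that modulate them, the TCF/LEF transcription factors and the core planar polarity proteins. They were chosen by symbol, as genes whose current zebrafish name begins with wnt, fzd, sfrp, dkk, dvl, axin, lef1, tcf7, lrp5, lrp6, rspo, dact, vangl, prickle, apc, notum, ror1 or ror2. In RefSeq's zebrafish genes 88 symbols met this rule, and 52 of them were measured among 13274 genes, with 1 record each, while 36 are not analysed here. The authors' table holds no transcript with all 6 means below 100, so 17 of the 52 genes, with a group mean under 100 somewhere, entered it through their higher groups. Counts over the 52 genes therefore describe these genes and no wider set.

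RNA of zebrafish embryos was sequenced after exposure to SB505124, which blocks ALK4, ALK5 and ALK7, the type I receptors through which Nodal and related ligands signal. Treatment started at sphere stage or later, at 30% epiboly, and embryos of both onsets were collected at shield, at tailbud and at 7-somite stage. This gives 6 groups, each listed as 1 sample of 30 to 60 pooled embryos. Every group received the inhibitor, no untreated embryos are compared here, and the labels give neither strain nor dose. The earlier onset is named sphere-treated and the later one epiboly-treated, and ratios set the earlier over the later.

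Wnt proteins are secreted lipid-modified ligands that bind Frizzled receptors. With the co-receptors Lrp5 and Lrp6 they stop the Axin and APC complex from destroying beta-catenin, which then works with TCF/LEF factors on target genes; this canonical branch favours ventrolateral and posterior fates in the fish gastrula and is held low where the forebrain forms. Through Vangl, Prickle and Ror proteins other Wnts polarise cells, and zebrafish lacking this planar polarity branch fail to narrow and lengthen the body axis, which also leaves the neural plate wide.

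Values are the authors' upper-quartile normalized (UQN) group means ± their deposited standard errors, and depth is unknown because the table holds no counts. Each mean and error was taken to come from 3 values, inferred from the errors themselves. No source used here says whether these were separate clutches, so p-values measure the spread between these values, which may be technical. A difference was called higher or lower when a limma-moderated test built on the deposited errors gave an adjusted p under 0.05 over all 13274 genes. Log2 ratios use mean + 5, which understates changes of low genes. In bulk RNA of whole embryos, fewer cells of a kind and less RNA per cell cannot be told apart. The median relative standard error of genes at 100 or more was highest, at 5.18%, in sphere-treated embryos at shield and lowest, at 2.46%, in epiboly-treated ones of that stage.

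The number of Wnt genes called between the onsets varied with the stage, as did the share of all genes called. At shield 22 of the 52 were called, 15 higher and 7 lower in sphere-treated embryos (28.8% and 13.5%). Together that is 42.3% beside 43.1% of all genes (21.8% higher, 21.3% lower), a total share near the background. At tailbud 11 were called, 2 higher and 9 lower, or 21.2% beside 3.04% of all genes (0.738% higher, 2.3% lower). At 7-somite 9 were called, 5 higher and 4 lower, or 17.3% beside 23.0% of all genes (9.46% higher, 13.5% lower). They were 10 higher and 4 lower when the group means were rescaled to equal totals. That rescaling moved the median log2 ratio of all genes from -0.02 to 0.04. In all, 31 genes were called at some stage, 9 of them at 2 stages, and fzd8b alone of the 52 at all 3. The median log2 ratio of the 52 genes was 0.09 at shield, -0.12 at tailbud and -0.04 at 7-somite, beside 0.01, -0.01 and -0.02 over all genes.

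Without moderation of the variance 8 of the 22 shield calls, 0 of the 11 tailbud calls and 2 of the 9 calls at 7-somite passed. Moderation without a trend in the mean gave 14 higher and 6 lower at shield, 0 higher and 5 lower at tailbud and 2 and 5 at 7-somite. The shares of all genes called under these settings are not given here, so these counts cannot be set against the shares above.

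**Figure D1:**
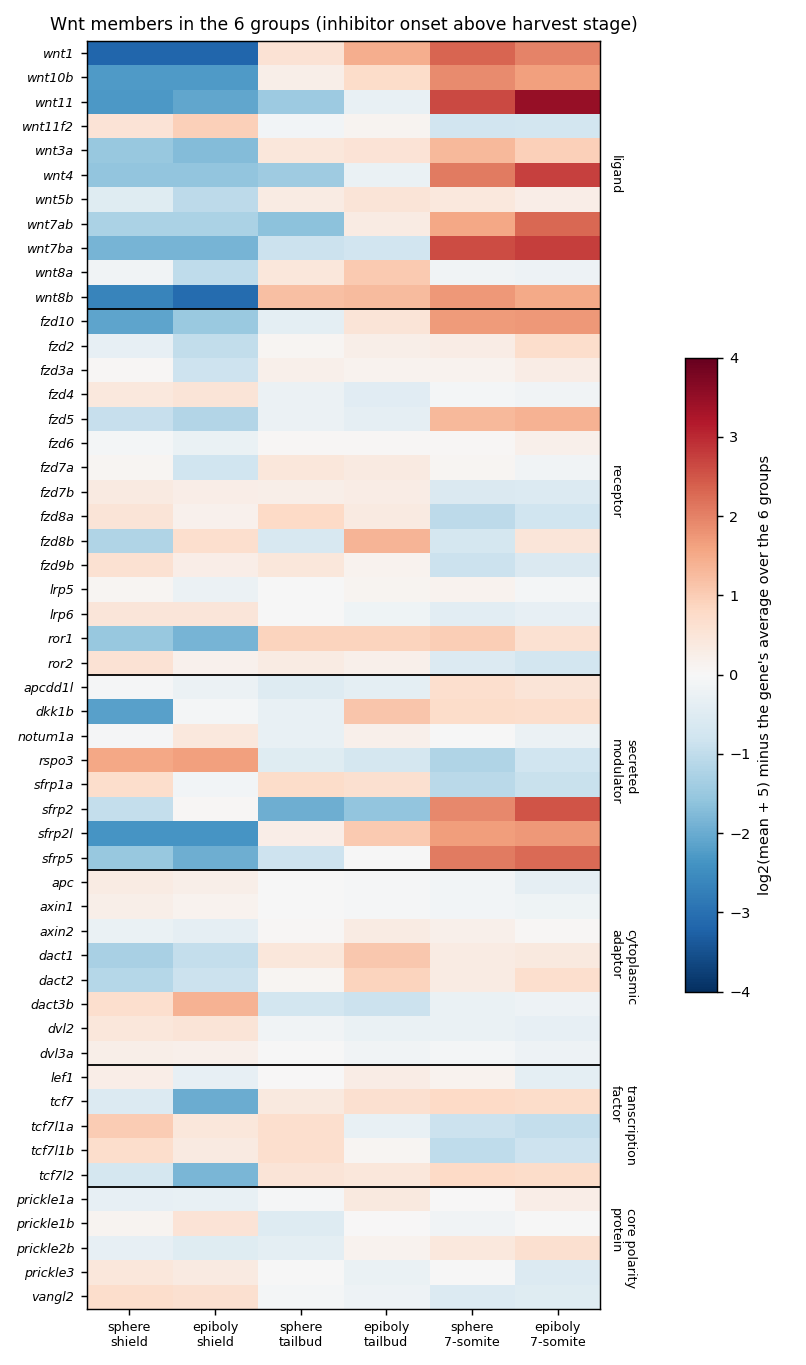
Level of each of the 52 Wnt genes (rows, grouped by role) in the 6 groups (columns, sphere-treated left of epiboly-treated within each stage), as log2(mean + 5) minus the gene's own average over the 6 groups. Late ligands such as wnt1, wnt4 and wnt7ba are blue at shield and red at 7-somite under both onsets, while fzd8b is paler or bluer in sphere-treated than in epiboly-treated embryos at each stage.

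Among the 11 ligand genes, 2 differed at shield, 2 at tailbud and 3 at 7-somite, beside 43.1%, 3.04% and 23.0% of all genes. wnt8a, the ligand of the ventrolateral margin that patterns mesoderm and posterior neural plate, averaged 1621 ± 215, 2467 ± 187 and 1637 ± 136 at shield, tailbud and 7-somite in sphere-treated embryos, against 893 ± 24.0, 3717 ± 349 and 1558 ± 61.7 in epiboly-treated embryos. It was higher at shield (log2 ratio 0.86 ± 0.15, limma adjusted p = 0.0089) and lower at tailbud (log2 ratio -0.59 ± 0.13, limma adjusted p = 0.047). The tailbud call was lost with TMM scaling (adjusted p = 0.056), with low genes filtered out (adjusted p = 0.054) and under both other treatments of the variance. Both onsets had their highest wnt8a mean at tailbud, and they stood close together at 7-somite.

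wnt5b and wnt11f2, both known from the planar polarity branch, took different courses. wnt5b, whose loss in zebrafish shortens the tail and axis, averaged 969 ± 75.0, 1706 ± 91.0 and 1802 ± 120 in sphere-treated embryos at the 3 stages, against 659 ± 10.8, 1949 ± 24.5 and 1639 ± 29.5 in epiboly-treated embryos. It was higher at shield (log2 ratio 0.55 ± 0.10, limma adjusted p = 0.0089) and not called later. wnt11f2, the silberblick gene needed for convergence and extension of the anterior axis, averaged 1421 ± 248, 913 ± 26.6 and 571 ± 37.3 in sphere-treated embryos, against 1908 ± 18.9, 1055 ± 19.1 and 593 ± 53.6 in epiboly-treated embryos. Its sphere-treated mean was the smaller at each stage, but no difference passed the test.

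Several ligand genes that were low in both groups at shield differed later. wnt11, related in sequence to wnt11f2, averaged 13 ± 2.0, 27 ± 4.93 and 551 ± 44.8 in sphere-treated embryos, against 16 ± 2.03, 67 ± 8.25 and 974 ± 63.6 in epiboly-treated embryos, and was called lower at 7-somite (log2 ratio -0.82 ± 0.12, limma adjusted p = 0.0018). At tailbud its means stood over 2-fold apart but narrowly missed the threshold (limma adjusted p = 0.051). wnt4, a ligand of the neural tube, averaged 4 ± 0.577, 5 ± 3.18 and 107 ± 2.03 in sphere-treated embryos, against 4 ± 0.882, 17 ± 3.46 and 174 ± 14.1 in epiboly-treated embryos. It too was lower at 7-somite (log2 ratio -0.68 ± 0.14, limma adjusted p = 0.0089).

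wnt7ab, a further ligand gene of the nervous system, averaged 4 ± 0.333, 2 ± 0.577 and 59 ± 19.4 in sphere-treated embryos, against 4 ± 1.0, 22 ± 6.67 and 102 ± 11.6 in epiboly-treated embryos. The tailbud difference passed (log2 ratio -1.95 ± 0.37, limma adjusted p = 0.023) at very low levels, in a gene that is in the table only through its epiboly-treated 7-somite mean, and did not with a pseudocount of 20 (log2 ratio -0.93, adjusted p = 0.053). wnt1, made at the midbrain-hindbrain boundary and dorsal midline of the neural tube, went the other way late. Its means were 3 ± 1.0, 104 ± 50.6 and 362 ± 19.9 in sphere-treated embryos, against 3 ± 0.577, 194 ± 9.17 and 282 ± 13.9 in epiboly-treated embryos, higher at 7-somite (log2 ratio 0.35 ± 0.11, limma adjusted p = 0.043). That call was lost with 2 values per mean and under both other treatments of the variance. The tailbud error in sphere-treated embryos was large beside its mean, and that difference did not pass. The other ligand genes, wnt3a, wnt7ba, wnt8b and wnt10b, were called at no stage, with means of 27 or less at shield.

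Among the receptor genes one stood out for the size of its difference. fzd8b, a Frizzled gene of the anterior embryo, averaged 58 ± 10.8, 88 ± 14.8 and 84 ± 1.0 in sphere-treated embryos, against 226 ± 23.8, 368 ± 18.3 and 198 ± 10.1 in epiboly-treated embryos. Every sphere-treated mean was below every epiboly-treated one, and fzd8b passed the table's minimum only through its epiboly-treated means. It was lower at shield (log2 ratio -1.87 ± 0.23, limma adjusted p = 0.0071), at tailbud (log2 ratio -2.0 ± 0.20, limma adjusted p = 0.00061) and at 7-somite (log2 ratio -1.19 ± 0.13, limma adjusted p = 0.00041). The paralog fzd8a did not share this pattern. It averaged 1434 ± 141, 1765 ± 145 and 482 ± 27.9 in sphere-treated embryos, against 1128 ± 24.0, 1286 ± 52.0 and 574 ± 31.6 in epiboly-treated embryos. It was called higher at shield at the edge of the threshold (log2 ratio 0.34, limma adjusted p = 0.04999), a call lost with either other pseudocount, with either rescaling and under both other treatments of the variance.

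Of the other 9 Frizzled genes 4 were called higher and 1 lower at shield, where 21.8% of all genes were called higher and 21.3% lower. fzd7a, which acts in gastrulation movements and early beta-catenin signalling, averaged 8598 ± 1025, 11154 ± 145 and 8597 ± 342 in sphere-treated embryos, against 4710 ± 81.9, 10453 ± 263 and 7517 ± 191 in epiboly-treated embryos (shield log2 ratio 0.87 ± 0.14, limma adjusted p = 0.0076). Its near relative fzd7b averaged 8153 ± 227 and 7672 ± 123 in the same order at shield and was not called, and reads from the pair may not be fully separable. fzd3a, a Frizzled gene of the planar polarity class, averaged 671 ± 27.5, 749 ± 40.0 and 722 ± 12.7 in sphere-treated embryos, against 364 ± 22.7, 714 ± 8.99 and 807 ± 25.6 in epiboly-treated embryos (shield log2 ratio 0.87 ± 0.10, limma adjusted p = 0.0071). The large difference at shield had no called counterpart later.

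fzd2, linked in zebrafish to Wnt5 signals, changed sides. It averaged 551 ± 49.2, 731 ± 31.5 and 854 ± 12.1 in sphere-treated embryos, against 346 ± 12.8, 814 ± 40.5 and 1135 ± 47.8 in epiboly-treated embryos. It was higher at shield (log2 ratio 0.66 ± 0.12, limma adjusted p = 0.0091) and lower at 7-somite (log2 ratio -0.41 ± 0.07, limma adjusted p = 0.0054). Together with wnt8a it makes up the 2 genes called in opposite directions at different stages. fzd9b averaged 863 ± 47.5, 767 ± 53.5 and 305 ± 40.7 in sphere-treated embryos, against 673 ± 6.51, 621 ± 40.5 and 372 ± 10.7 in epiboly-treated embryos, and was higher at shield (log2 ratio 0.36, limma adjusted p = 0.014). fzd10, a Frizzled gene of the dorsal neural tube, was lower there, at 159 ± 9.7 in sphere-treated and 250 ± 21.7 in epiboly-treated embryos (log2 ratio -0.64, limma adjusted p = 0.013). At tailbud fzd10 stood at 538 ± 136 and 1013 ± 55.6 in the same order without a call, and at 7-somite at 2313 ± 42.2 and 2353 ± 91.4. The remaining Frizzled genes, fzd4, fzd5 and fzd6, were called at no stage.

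Differences of the co-receptor genes were small. lrp5 averaged 1089 ± 30.0, 1032 ± 22.5 and 1158 ± 18.3 in sphere-treated embryos, against 888 ± 18.8, 1127 ± 39.1 and 978 ± 23.8 in epiboly-treated embryos, and was higher at shield (log2 ratio 0.29, limma adjusted p = 0.012) and at 7-somite (log2 ratio 0.24, limma adjusted p = 0.028). The 7-somite call was lost with 2 values per mean and under both other treatments of the variance. lrp6, the paralog of lrp5, had log2 ratios of 0.00, 0.15 and -0.09 at the 3 stages and was not called. The Ror genes encode receptor tyrosine kinases that bind Wnt5-class ligands. ror2 averaged 3625 ± 147, 3058 ± 177 and 1687 ± 104 in sphere-treated embryos, against 2782 ± 26.1, 2851 ± 132 and 1466 ± 66.5 in epiboly-treated embryos, and was higher at shield (log2 ratio 0.38, limma adjusted p = 0.0075). ror1 averaged 112 ± 9.84, 616 ± 35.1 and 663 ± 69.3 in sphere-treated embryos, against 88 ± 3.28, 615 ± 40.4 and 503 ± 2.4 in epiboly-treated embryos, and was higher at 7-somite (log2 ratio 0.40, limma adjusted p = 0.038), a call that ended under both other treatments of the variance.

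Of the secreted modulators, the Wnt antagonist gene dkk1b differed most. Dkk1 binds Lrp5 and Lrp6 and blocks the canonical branch, and in zebrafish it is made in the prechordal plate and promotes head formation. dkk1b averaged 27 ± 17.5, 111 ± 7.13 and 235 ± 21.7 in sphere-treated embryos, against 131 ± 8.88, 302 ± 14.4 and 230 ± 20.1 in epiboly-treated embryos. It was lower at shield (log2 ratio -2.09 ± 0.61, limma adjusted p = 0.031) and at tailbud (log2 ratio -1.40 ± 0.14, limma adjusted p = 0.00060), and the onsets were within their errors at 7-somite. The error of the sphere-treated shield mean was large beside the mean itself, so the size of that difference is loosely known.

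The secreted Frizzled-related genes encode soluble proteins that bind Wnts. sfrp1a averaged 3289 ± 465, 3351 ± 457 and 939 ± 129 in sphere-treated embryos, against 1874 ± 26.0, 3126 ± 172 and 1073 ± 60.8 in epiboly-treated embryos, higher at shield (log2 ratio 0.81 ± 0.16, limma adjusted p = 0.011). sfrp2 averaged 17 ± 3.61, 6 ± 2.91 and 154 ± 33.6 in sphere-treated embryos, against 39 ± 1.16, 9 ± 2.67 and 234 ± 38.3 in epiboly-treated embryos, and was lower at shield (log2 ratio -1.0, limma adjusted p = 0.012). sfrp2l and sfrp5 were called at no stage. The same held for notum1a, whose product strips the lipid from Wnts, at 906 ± 131, 756 ± 99.7 and 913 ± 27.4 in sphere-treated embryos, against 1239 ± 50.3, 1076 ± 23.5 and 785 ± 40.3 in epiboly-treated embryos. rspo3, which encodes an R-spondin that raises Wnt receptor levels, and apcdd1l, whose relative apcdd1 encodes a membrane-bound Wnt inhibitor, were not called either.

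Most cytoplasmic components of the canonical branch were not called. The genes of the destruction complex, axin1 and apc, the Dishevelled genes dvl2 and dvl3a and the feedback target axin2 were called at no stage. axin2 averaged 1568 ± 32.5, 1927 ± 141 and 2170 ± 78.4 in sphere-treated embryos, against 1468 ± 35.2, 2336 ± 120 and 1933 ± 49.0 in epiboly-treated embryos. Its log2 ratio was 0.09, -0.28 and 0.17 at the 3 stages, with limma adjusted p = 0.19, 0.24 and 0.10.

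Products of the Dact genes bind Dishevelled. In zebrafish Dact2 also promotes the breakdown of Nodal receptors. dact2 averaged 625 ± 40.3, 1464 ± 127 and 1716 ± 206 in sphere-treated embryos, against 762 ± 40.3, 2561 ± 118 and 2170 ± 122 in epiboly-treated embryos, and was lower at tailbud (log2 ratio -0.80 ± 0.11, limma adjusted p = 0.0046). dact1 averaged 300 ± 10.7, 1027 ± 111 and 944 ± 131 in sphere-treated embryos, against 389 ± 35.0, 1588 ± 57.0 and 998 ± 24.1 in epiboly-treated embryos. It was lower at shield (log2 ratio -0.37, limma adjusted p = 0.046) and at tailbud (log2 ratio -0.63, limma adjusted p = 0.033), but both calls ended under both other treatments of the variance. dact3b averaged 64 ± 9.07, 21 ± 4.93 and 31 ± 4.67 in sphere-treated embryos, against 108 ± 12.9, 19 ± 2.33 and 33 ± 2.0 in epiboly-treated embryos, and was called lower at shield (log2 ratio -0.71, limma adjusted p = 0.033). It is in the table only through its epiboly-treated shield mean, the higher side of that comparison, so this direction was favoured by the table's minimum.

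All 5 measured TCF/LEF genes were higher at shield in sphere-treated embryos, where 21.8% of all genes were called higher. tcf7 averaged 183 ± 28.8, 353 ± 9.21 and 468 ± 12.4 in sphere-treated embryos, against 64 ± 3.22, 421 ± 25.6 and 453 ± 1.33 in epiboly-treated embryos (shield log2 ratio 1.45 ± 0.20, limma adjusted p = 0.0071). tcf7l2 averaged 81 ± 10.3, 198 ± 9.74 and 239 ± 9.14 in sphere-treated embryos, against 35 ± 1.45, 189 ± 5.46 and 228 ± 5.49 in epiboly-treated embryos (shield log2 ratio 1.10 ± 0.17, limma adjusted p = 0.0075). In both genes the difference was over 2-fold at shield and uncalled later.

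lef1, an activator and itself a target of the canonical branch, crossed over. It averaged 1235 ± 66.6, 1052 ± 21.5 and 1137 ± 52.8 in sphere-treated embryos, against 820 ± 30.3, 1270 ± 15.8 and 781 ± 37.7 in epiboly-treated embryos. It was higher at shield (log2 ratio 0.59 ± 0.08, limma adjusted p = 0.0071) and at 7-somite (log2 ratio 0.54 ± 0.09, limma adjusted p = 0.0033), while its tailbud mean was the smaller (limma adjusted p = 0.091). From shield to tailbud lef1 changed by -0.23 on the log2 scale in sphere-treated and 0.63 in epiboly-treated embryos, or -0.0045 and 0.81 relative to the median of all genes.

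tcf7l1a and tcf7l1b encode factors that mainly repress Wnt targets, and zebrafish without the first, the headless mutant, lack forebrain parts. tcf7l1a averaged 4317 ± 179, 3394 ± 551 and 1168 ± 3.0 in sphere-treated embryos, against 2892 ± 97.0, 1713 ± 92.8 and 1085 ± 42.9 in epiboly-treated embryos. It was higher at shield (log2 ratio 0.58 ± 0.07, limma adjusted p = 0.0071) and at tailbud (log2 ratio 0.98 ± 0.17, limma adjusted p = 0.017). tcf7l1b averaged 2257 ± 129, 2214 ± 274 and 678 ± 32.7 in sphere-treated embryos, against 1785 ± 31.5, 1446 ± 19.8 and 777 ± 42.3 in epiboly-treated embryos. It was likewise higher at shield (log2 ratio 0.34, limma adjusted p = 0.015) and at tailbud (log2 ratio 0.61, limma adjusted p = 0.047). These were the 2 Wnt genes called higher at tailbud. Both tailbud calls ended under both other treatments of the variance, and that of tcf7l1b also with low genes filtered out (adjusted p = 0.054).

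**Figure D2:**
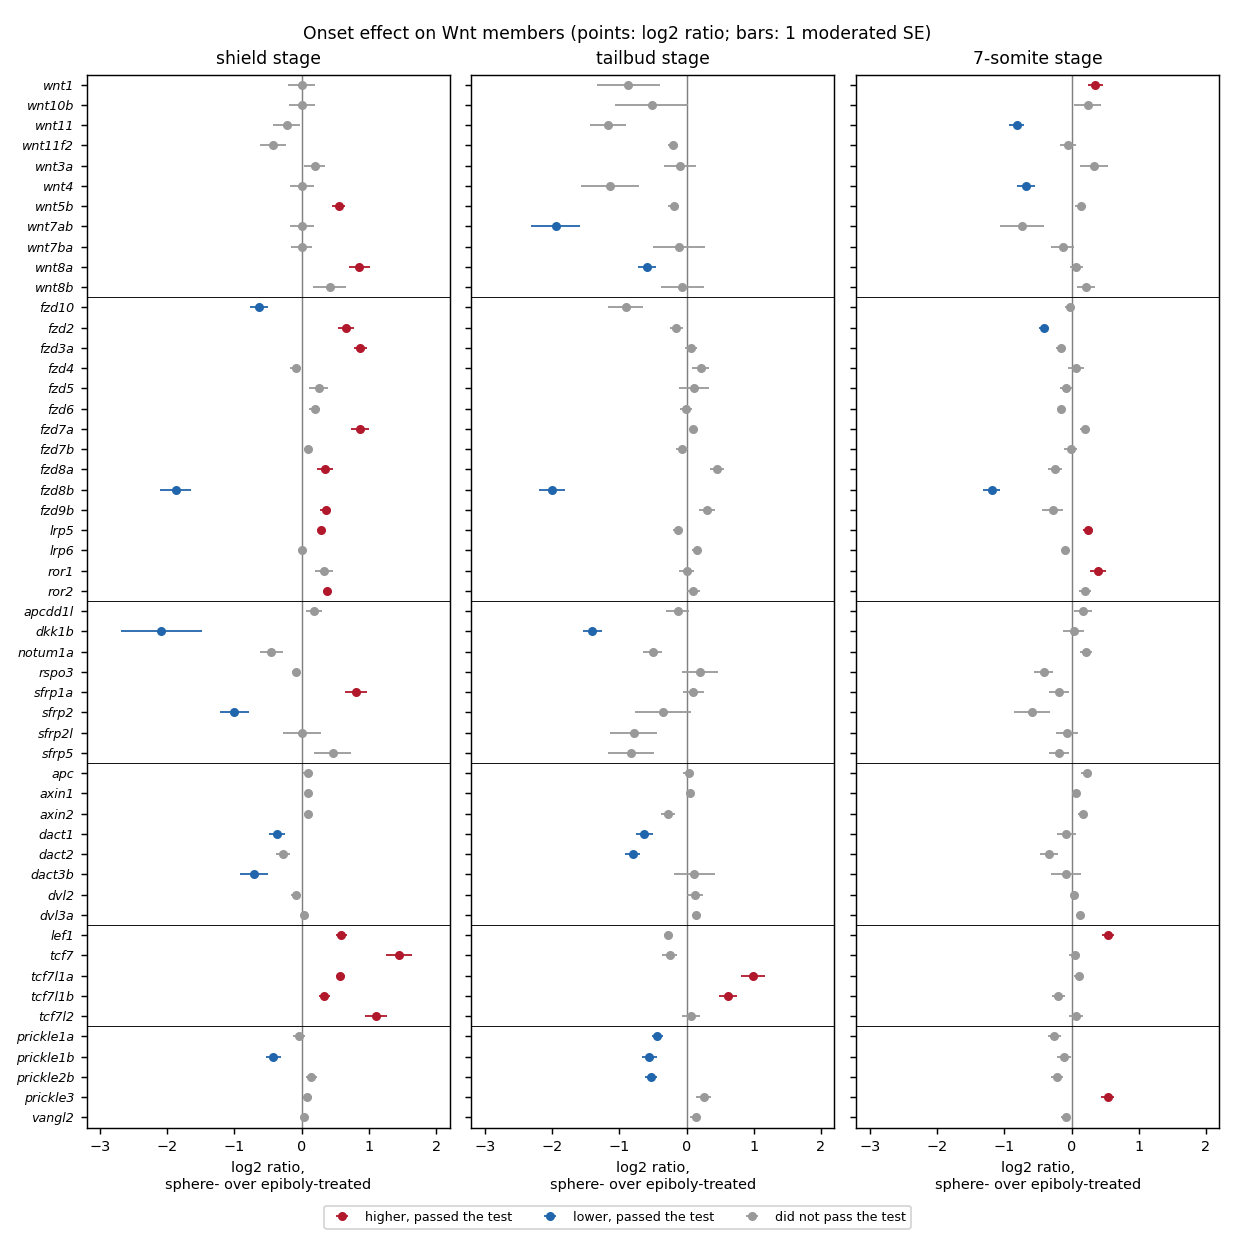
Log2 ratio of sphere-treated over epiboly-treated embryos for each of the 52 Wnt genes (rows, grouped by role) at the 3 stages (panels), with bars of 1 moderated standard error and colour for the result of the limma-moderated test. Calls at shield lie on both sides of 0, with 15 higher and 7 lower, and at tailbud 9 of 11 calls lie below 0.

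Among core planar polarity proteins, which sort to opposite faces of a cell, 3 of the 4 measured Prickle genes were lower at tailbud, where 2.3% of all genes were. prickle1a averaged 754 ± 46.6, 935 ± 34.0 and 964 ± 76.9 in sphere-treated embryos, against 776 ± 10.1, 1268 ± 40.9 and 1153 ± 25.1 in epiboly-treated embryos (tailbud log2 ratio -0.44 ± 0.08, limma adjusted p = 0.022). prickle1b averaged 1511 ± 135, 966 ± 59.5 and 1274 ± 107 in sphere-treated embryos, against 2030 ± 63.9, 1422 ± 93.8 and 1381 ± 55.2 in epiboly-treated embryos. It was lower at shield (log2 ratio -0.42, limma adjusted p = 0.022) and at tailbud (log2 ratio -0.56 ± 0.11, limma adjusted p = 0.028). The tailbud calls of this pair ended under both other treatments of the variance.

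prickle2b averaged 444 ± 16.5, 425 ± 19.1 and 744 ± 49.0 in sphere-treated embryos, against 401 ± 9.29, 617 ± 6.49 and 865 ± 22.6 in epiboly-treated embryos (tailbud log2 ratio -0.53 ± 0.09, limma adjusted p = 0.016). prickle3, by comparison, averaged 522 ± 15.9, 382 ± 19.1 and 380 ± 1.2 in sphere-treated embryos, against 493 ± 4.04, 320 ± 4.91 and 260 ± 11 in epiboly-treated embryos, and was higher at 7-somite (log2 ratio 0.54 ± 0.10, limma adjusted p = 0.0050). vangl2, the trilobite gene whose loss blocks convergence and extension, averaged 4319 ± 239, 2524 ± 71.1 and 1815 ± 55.9 in sphere-treated embryos, against 4203 ± 53.1, 2301 ± 137 and 1928 ± 53.0 in epiboly-treated embryos. It was called at no stage.

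By branch, 21 of the 52 genes were classed as canonical, 16 as planar polarity and 15 as shared between the branches. Over all genes 21.8% were called higher and 21.3% lower at shield, 0.738% and 2.3% at tailbud, and 9.46% and 13.5% at 7-somite. Of the canonical genes 7 were higher and 1 lower at shield, 2 and 3 at tailbud, and 3 and 0 at 7-somite. Of the planar polarity genes, which include fzd2, fzd3a, fzd6, fzd7a and fzd7b here, 5 were higher and 1 lower at shield, 0 and 3 at tailbud, and 2 and 3 at 7-somite. Of the shared genes 3 were higher and 5 lower at shield, 0 and 3 at tailbud, and 0 and 1 at 7-somite. The median log2 ratios of the canonical genes were 0.09, -0.13 and 0.11 at the 3 stages, those of the planar polarity genes 0.12, -0.11 and -0.10, and those of the shared genes -0.08, 0.10 and -0.09. No difference between the branches was tested.

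Genes of the pathways that the name rule does not reach were counted from 3 lists. Of 38 measured core Wnt pathway genes 14 were higher and 5 lower at shield, 1 and 4 at tailbud, and 4 and 8 at 7-somite, beside 43.1%, 3.04% and 23.0% of all genes called in either direction at these stages. tmem88a, a gene of a Dishevelled-binding membrane protein, stood at 3 ± 1.33, 2 ± 1.0 and 6 ± 3.46 in sphere-treated embryos, against 11 ± 1.73, 35 ± 1.73 and 127 ± 6.03 in epiboly-treated embryos, and was called lower at all 3 stages. It passed the table's minimum only through its epiboly-treated 7-somite mean. The genes named from these lists were chosen after their values were seen. frzb, a gene of a secreted Wnt binder, stood at 39 ± 6.03, 22 ± 2.73 and 24 ± 5.03 in sphere-treated embryos, against 90 ± 10.2, 207 ± 11.1 and 52 ± 9.13 in epiboly-treated embryos, again lower at each stage, and passed the minimum only through its epiboly-treated tailbud mean. wif1, which encodes another secreted Wnt binder, was at 7 ± 0.667 in sphere-treated and 66 ± 4.37 in epiboly-treated tailbud embryos (log2 ratio -2.56). At 7-somite wif1 was not called, at 163 ± 41.8 in sphere-treated and 193 ± 13.3 in epiboly-treated embryos. cxxc5b, a gene of a Dishevelled-binding protein, was higher at each stage (shield log2 ratio 1.24).

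Of 24 measured planar polarity genes outside the name rule 9 were higher and 5 lower at shield and 4 and 2 at 7-somite, beside 43.1% and 23.0% of all genes called. At tailbud 0 were called, beside 3.04% of all genes. The flamingo-type cadherin genes celsr1a, celsr1b and celsr2 were higher at shield, celsr2 at 3718 ± 282 in sphere-treated and 1885 ± 67.3 in epiboly-treated embryos (log2 ratio 0.98). Also higher there were ankrd6a (log2 ratio 2.51), ankrd6b (1.33), daam1b (1.07), rock2b (0.76), invs (0.44) and rhoaa (0.29). For ankrd6a this direction was favoured, as it passed the table's minimum only through its sphere-treated shield mean. The 5 lower at shield were tnika (log2 ratio -1.34), tnikb (-0.72), rac1a (-0.38), rock2a (-0.22) and cdc42 (-0.14).

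Of 25 measured Wnt response genes 9 were higher and 7 lower at shield, 2 and 5 at tailbud, and 5 and 5 at 7-somite, beside 43.1%, 3.04% and 23.0% of all genes called. Many of these genes also answer to other signals. The lists overlap, as nkd1 and znrf3 are also among the core Wnt pathway genes. Of the markers below, tbx6, tbx16 and msgn1 (presomitic mesoderm) and pax2a, en2a and gbx2 (midbrain-hindbrain boundary) are also response genes here. The feedback inhibitor gene nkd1 crossed over, at 690 ± 45.2, 868 ± 25.5 and 1123 ± 32.0 in sphere-treated embryos, against 466 ± 6.74, 1288 ± 55.7 and 1461 ± 14.7 in epiboly-treated embryos. It was higher at shield (log2 ratio 0.56) and lower at tailbud (log2 ratio -0.57) and 7-somite (log2 ratio -0.38). Of the ventral regulators vent was lower at shield (log2 ratio -1.09) and higher at 7-somite (log2 ratio 0.52), while ved was higher at each stage and vox was lower at shield (log2 ratio -0.60) and not called later. The caudal-type gene cdx4 was higher at shield, at 4219 ± 506 in sphere-treated and 2229 ± 110 in epiboly-treated embryos.

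Markers of embryonic cell populations were also counted, and their means were summed. Each sum is weighted towards the highest genes of its list. Over all genes 21.8% were called higher and 21.3% lower at shield, 0.738% and 2.3% at tailbud, and 9.46% and 13.5% at 7-somite. Summed over 7 measured presomitic mesoderm markers, the mean was 2374 in sphere-treated and 8750 in epiboly-treated tailbud embryos, with 6 of the 7 lower. At shield the sum was 6918 in sphere-treated and 12074 in epiboly-treated embryos, with 5 lower, and at 7-somite it was 10597 and 10534, with 1 higher and 1 lower. Of 7 prechordal plate and organizer markers 5 were lower and 1 higher at shield, with sums of 2945 in sphere-treated and 4473 in epiboly-treated embryos. At tailbud 3 were lower, with sums of 9732 and 11774, and at 7-somite 5 were lower and 1 higher, with sums of 7675 and 10051. Most of the tailbud and 7-somite sums came from chrd, otx2b and six3b, so they say little about the other markers of this list. This list includes frzb, and six3b is also in the next list. Its markers gsc, lhx1a, frzb and ctslb passed the table's minimum only through epiboly-treated means, so lower calls were favoured for them. The same held for mespaa among the presomitic mesoderm markers. Of 10 eye field and forebrain markers 4 were higher and 1 lower at shield, 1 and 0 at tailbud and 3 and 0 at 7-somite, with sums of 679 and 219, 7627 and 6163, and 8605 and 7481 in sphere-treated and epiboly-treated embryos.

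Counts of the next lists likewise stand beside 43.1%, 3.04% and 23.0% of all genes called at the 3 stages. All 8 maternal and germ cell markers were lower at shield, with sums of 18247 in sphere-treated and 30270 in epiboly-treated embryos. For buc this direction was favoured, as it passed the table's minimum only through its epiboly-treated shield mean. Of the maternal and germ cell markers 0 were called at tailbud and 1, lower, at 7-somite. The sums there were 7286 and 6840, and 4747 and 5601. Of 8 epidermis markers 6 were higher at shield, 5 at tailbud and 4 at 7-somite, with 0 lower. Their sums, mostly from krt4 and krt5, were 152945 and 113039, 184676 and 167949, and 220164 and 200794 in sphere-treated and epiboly-treated embryos. For 7 midbrain-hindbrain boundary markers the sums were 556 and 318, 2977 and 4482, and 5251 and 5762, with 2 called higher at shield, 1 lower at tailbud and 2 lower at 7-somite. Most of the sphere-treated shield sum came from fgf8a, at 361 ± 47.9 against 108 ± 11.5 in epiboly-treated embryos. The other higher call at shield, pax2a, stood at 8 ± 1.53 and 3 ± 0.667, so the shield sums say little about the other markers. The 8 markers of dorsal neural tube and neural crest summed to 11381 and 6886, 19528 and 16303, and 14306 and 12588. Of them 3 were called higher and 1 lower at shield, 1 higher at tailbud, and 4 higher and 2 lower at 7-somite. The highest gene of this list in every group was tfap2a, at 6550 and 2735, 9355 and 6214, and 4861 and 3998 in the same order. The lower calls were foxd3 at shield, and foxd3 and sox10 at 7-somite. No marker in these 7 lists was at 0 in any group. The part of these populations in the differences of the Wnt genes was not tested.

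Whether the onset effect itself differed between stages was tested directly. From shield to tailbud it became more negative for 13 of the 52 genes and more positive for 0. That is 25% called beside 23.0% of all genes (13.6% negative, 9.36% positive), a total share near the background. The 13 were wnt8a, wnt5b, wnt7ab, fzd2, fzd3a, fzd7a, lrp5, dact2, lef1, tcf7, tcf7l2, prickle1a and prickle2b. For wnt8a the log2 ratio shifted by -1.45 ± 0.22 (limma adjusted p = 0.0014), for tcf7 by -1.70 ± 0.23 (limma adjusted p = 0.00077) and for lef1 by -0.86 ± 0.11 (limma adjusted p = 0.00044). The same number is the difference between the steps of the onsets from shield to tailbud. All 13 rose in epiboly-treated embryos. In sphere-treated embryos lef1 was called as a fall, with a log2 change of -0.23, or -0.0045 relative to the median of all genes. There fzd3a, lrp5, prickle2b and wnt7ab were not called, and the others rose by less. fzd8b and dkk1b, the genes most lowered at shield, were not called in this test (limma adjusted p = 0.80 and 0.46).

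From tailbud to 7-somite the onset effect became more positive for 4 genes and more negative for 3, or 13.5% called beside 3.37% of all genes (1.79% positive, 1.57% negative). It became more positive for dkk1b (1.43 ± 0.21, limma adjusted p = 0.0023), lef1 (0.81 ± 0.11, limma adjusted p = 0.0017), notum1a (0.72 ± 0.18, limma adjusted p = 0.048) and lrp5 (0.37 ± 0.09, limma adjusted p = 0.04999). It became more negative for tcf7l1a (-0.88 ± 0.21, limma adjusted p = 0.039), tcf7l1b (-0.81 ± 0.18, limma adjusted p = 0.028) and fzd8a (-0.70 ± 0.16, limma adjusted p = 0.029). Of these 7 genes, lef1 and lrp5 lay further from an equal level at 7-somite than at tailbud, and the other 5 lay closer. Without moderation of the variance 2 were called positive and 0 negative, and the same counts came without a trend.

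**Figure D3:**
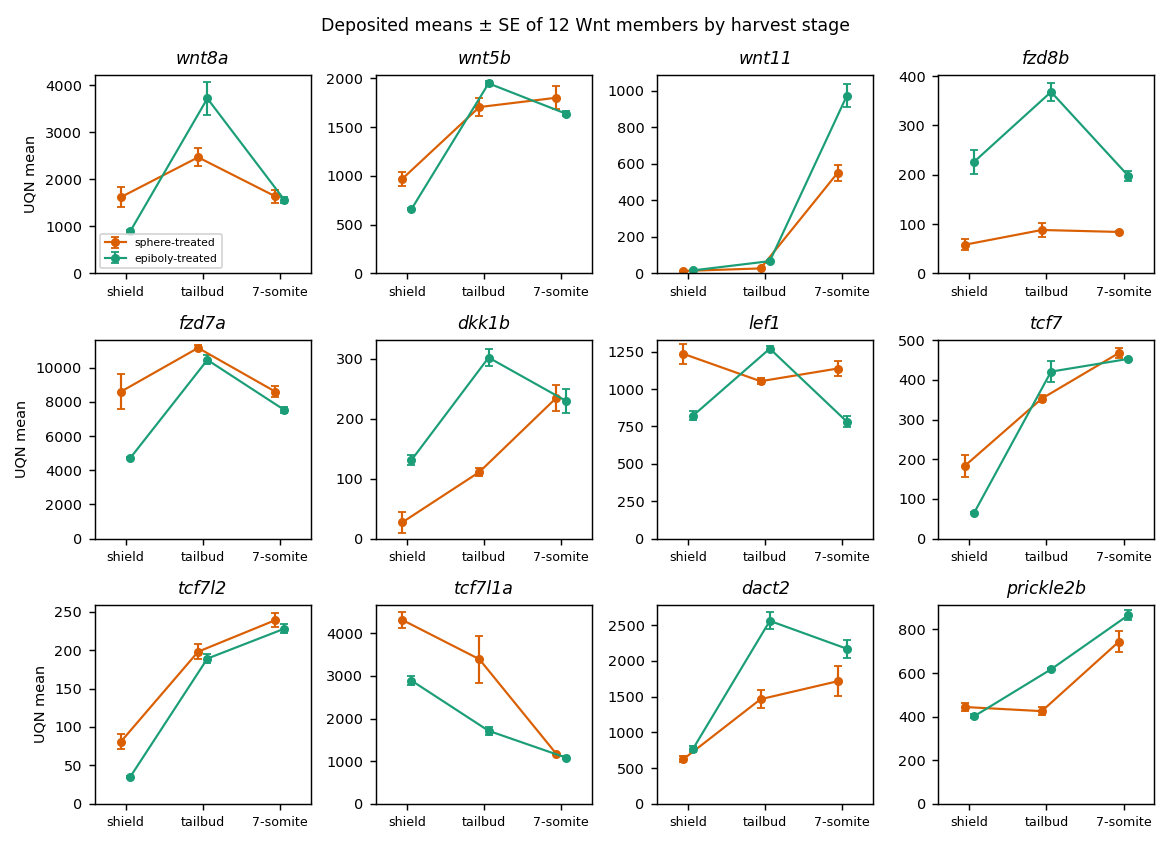
Deposited UQN means ± standard errors of 12 Wnt genes (panels) at shield, tailbud and 7-somite stage in sphere-treated (orange) and epiboly-treated (green) embryos, each panel with its own axis from 0. The fzd8b lines stay apart at the 3 stages, those of dkk1b meet at 7-somite, and those of wnt8a, lef1 and wnt5b cross between shield and tailbud.

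From shield to tailbud 20 of the 52 genes rose and 15 fell in sphere-treated embryos (38.5% up, 28.8% down). Together that is 67.3% beside 64.9% of all genes (20.4% up, 44.5% down), so only the total share was near the background. In epiboly-treated embryos 32 rose and 16 fell, or 92.3% beside 81.4% (32.9% up, 48.6% down). These 32 rises include wnt4, wnt7ab, wnt7ba, wnt10b, wnt11, sfrp2l and sfrp5, which are in the table only through 7-somite means. Of these, wnt10b, wnt11 and sfrp2l also rose in sphere-treated embryos. Low shield means, and so rises, were favoured by that selection, so the counts of rises are partly built in. The median of all genes fell over this step by 0.23 and 0.19 on the log2 scale in sphere-treated and epiboly-treated embryos, and rose by 0.08 and 0.10 with equal totals, so changes are also given relative to that median. With TMM scaling the sphere-treated counts were 25 and 7, and with equal totals 26 and 6.

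wnt8b and wnt1 had shield means of 3 or less and are in the table through later groups, so a rise was built into their selection, and its size depends on the pseudocount. wnt8b rose by 3.85 in sphere-treated embryos (4.07 relative to the median) and by 4.32 in epiboly-treated embryos (4.51 relative to it), reaching 110 ± 33.0 and 115 ± 7.45. At shield it stood at 3 ± 1.53 and 1 ± 0.333, and at 7-somite at 162 ± 12.8 and 139 ± 1.67, in the same order. wnt1 rose by 3.77 (3.99 relative to the median) and 4.64 (4.82), and sfrp2l by 2.61 (2.84) and 3.40 (3.59), in sphere-treated and epiboly-treated embryos. The sfrp2l means were 4 ± 0.333, 50 ± 15.8 and 140 ± 15.1 in sphere-treated embryos, against 4 ± 2.08, 90 ± 14.4 and 147 ± 11.9 in epiboly-treated embryos. sfrp2l likewise is in the table only through its 7-somite means.

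Among called falls that of rspo3 was the largest, with a log2 change of -2.03 (-1.81 relative to the median) in sphere-treated and -2.32 (-2.13) in epiboly-treated embryos. It went down to 166 ± 35.7 and 144 ± 20.2 at tailbud, with shield means of 694 ± 17.6 and 738 ± 17.1, and stood at 100 ± 6.96 and 135 ± 5.55 at 7-somite. dact3b changed by -1.41 (-1.18) and -2.24 (-2.05). Because dact3b is in the table only through its epiboly-treated shield mean, a fall from shield was favoured by the table's minimum. The third called fall was that of vangl2 in sphere-treated embryos (-0.77, or -0.55 relative to the median), where sfrp2 changed by -1.0 without a call, and that of sfrp2 in epiboly-treated embryos (-1.65, or -1.47).

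From tailbud to 7-somite 17 rose and 13 fell in sphere-treated embryos (32.7% up, 25% down). Together that is 57.7% beside 52.8% of all genes (25.1% up, 27.7% down), a total share again near the background. In epiboly-treated embryos 15 rose and 24 fell, or 75% beside 48.0% (23.1% up, 24.9% down). With the groups rescaled to equal totals 19 rose and 16 fell there, and the median change of all genes moved from -0.03 to 0.04. wnt11, sfrp2 and wnt7ba, which are in the table only through their 7-somite means, had the largest rises under both onsets, wnt11 by 4.12 in sphere-treated and 3.77 in epiboly-treated embryos. sfrp2 rose by 3.85 and 4.09 in the same order and wnt7ba by 3.49 and 3.51. The wnt7ba means were 1 ± 0.333, 7 ± 1.86 and 130 ± 6.66 in sphere-treated embryos, against 1 ± 0.333, 8 ± 3.0 and 143 ± 17.9 in epiboly-treated embryos. Also called as rises under both onsets were wnt4, wnt7ab, wnt10b, sfrp2l and sfrp5, likewise in the table only through 7-somite means. Rises of such genes were favoured by that selection, so the counts of rises are partly built in.

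Of the falls of this step, fzd8a changed by -1.86 in sphere-treated and -1.16 in epiboly-treated embryos, and sfrp1a by -1.83 and -1.54. The 3 largest falls also included tcf7l1b in sphere-treated embryos (-1.70) and wnt8a in epiboly-treated embryos (-1.25). The 2 steps share the tailbud groups, so their values are not independent.

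**Figure D4:**
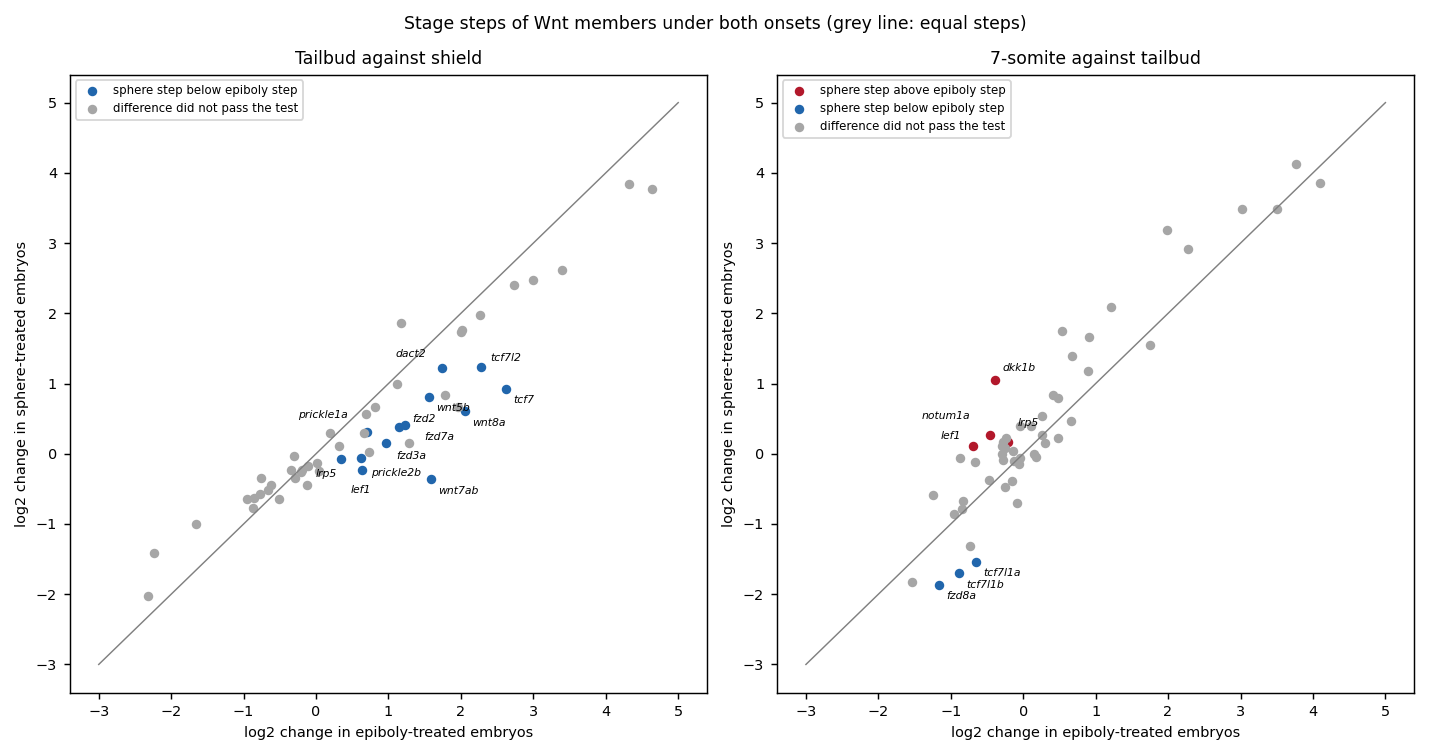
Log2 change of each of the 52 Wnt genes between stages in sphere-treated (vertical axis) against epiboly-treated embryos (horizontal axis), for tailbud against shield (left) and 7-somite against tailbud (right), with a grey line of equal steps. The 13 named genes on the left lie below the line, and on the right 4 named genes lie above it and 3 below.

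A difference shared by the 3 stages was sought in a limma fit to the 6 group means with stage as a block, which leaves 2 residual degrees of freedom. It called 0 of the 52 genes and 0 of all genes. In that fit 9 of the 52 genes had an unadjusted p under 0.05, beside 974 of all 13274 genes. The smallest adjusted p among the 52 was 0.51, which was that of fzd8b. The authors' deposited table, whose calls are headed 50% change, marks 11 of the 52 at shield (7 higher and 4 lower in sphere-treated embryos), beside 14.4% of all records. Its full rule is not known. dkk1b at tailbud, with means of 111 ± 7.13 in sphere-treated and 302 ± 14.4 in epiboly-treated embryos, is not marked. The authors' table marks 2 at tailbud, fzd8b and wnt1, and 3 at 7-somite, fzd8b, wnt11 and wnt7ab, all lower in sphere-treated embryos, beside 1.63% and 1.35% of records. The marked genes fzd8b, wnt7ab and, at shield, dact3b passed the table's minimum only through epiboly-treated means, so lower marks were favoured for them. Among the marks, wnt1 at tailbud (limma adjusted p = 0.42) and wnt7ab at 7-somite (limma adjusted p = 0.12) did not pass the test used here. Of the tailbud calls made here, only fzd8b is marked.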

How the data were processed

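RNA of 6 groups of whole zebrafish embryos was sequenced by the authors. Per the file headers, the deposited values are upper-quartile normalized group means, whole-number scores that are not raw counts, with standard errors as scores on the same scale. The authors' table also holds a ratio per stage, epiboly-treated over sphere-treated, and a yes or no call headed 50% change. The submitters' processing notes say that the authors used DESeq 1.6.1 but give it no role; aligner, counting tool and build were not given in the sources used here.

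Of 13321 records 12182 took a symbol from the RefSeq table of GRCz12tu by gene identifier and 42 by accession, while 1097 kept their accession. The record with the highest mean was kept per symbol, leaving 13274 genes. Of 11928 standard errors between 0 and 5, 11928 lay within 0.0005 of a grid of values. The grid holds every error that 3 whole numbers can give, and some that they cannot, so the check is a loose one.

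The variance of log2(mean + 5) came from the deposited errors by the delta method. It was moderated with limma 3.58.1 squeezeVar towards a trend with the mean (4 degrees of freedom per gene for 2 groups, 8 for 4), in R 4.3.3. The trend was chosen after the data were seen, with moderation without it as an added alternative. P-values are two-sided with Benjamini-Hochberg adjustment over all genes. The procedure was also run on simulated data with the same spread setting for all genes and both groups. The groups here differ in spread, and the outcome of that run is not given, so nothing is drawn from it. Named genes are those called in an onset comparison, those at least 2-fold apart with a higher mean of at least 50, and the 3 largest called rises and falls of each stage step, and every other member is accounted for by name or count. Alternatives were pseudocounts of 1 and 20, equal totals, TMM factors computed on the means, no moderation, a minimum mean of 100, 2 values per mean and a 2-fold rule. The members and lists were chosen with earlier results of these data known.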

Additional observations from a re-analysis of the deposited data

Results flagged for a closer look

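The genes below had an onset effect that differed between neighbouring stages by the limma-moderated test of the difference itself, adjusted over all genes. From shield to tailbud 25% of the 52 genes were called beside 23.0% of all genes, a total share near the background. From tailbud to 7-somite 13.5% were called beside 3.37%. From shield to tailbud the log2 ratio of sphere-treated over epiboly-treated embryos shifted by -1.45 for wnt8a, -0.74 for wnt5b and -1.95 for wnt7ab among the ligands. It shifted by -0.82 for fzd2, -0.80 for fzd3a, -0.77 for fzd7a and -0.42 for lrp5 among the receptors. Among transcription factors the shift was -0.86 for lef1, -1.70 for tcf7 and -1.04 for tcf7l2. It was -0.52 for dact2, -0.40 for prickle1a and -0.68 for prickle2b. The shift of wnt7ab rests on very low levels. Its means were 4 under both onsets at shield, and 2 in sphere-treated and 22 in epiboly-treated embryos at tailbud. That gene is in the table only through its epiboly-treated 7-somite mean.

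From tailbud to 7-somite the shift was 1.43 for dkk1b, 0.81 for lef1, 0.37 for lrp5 and 0.72 for notum1a. It was -0.70 for fzd8a, -0.88 for tcf7l1a and -0.81 for tcf7l1b.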

How the results depend on the processing

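Alternatives were run for the 52 Wnt genes, not for genes of the other lists or markers. None of their calls between the onsets, shifts of the onset effect or named stage steps changed direction under them. Of 42 calls between the onsets, 40 or 41 stayed with pseudocounts of 1 and 20, with either rescaling and with 2 values per mean, 36 of the 38 still tested with a minimum mean of 100, 31 without a trend and 10 without moderation. The 24 named stage steps stayed called wherever they could be computed. Without moderation the onset counts were 7 higher and 1 lower at shield, 0 and 0 at tailbud, and 1 and 1 at 7-somite. By the 2-fold rule they were 2 and 2, 0 and 3, and 0 and 1. Without a trend the tailbud counts were 0 and 5, and 2 were higher at 7-somite. A minimum mean of 100 left 1 higher at tailbud. Equal totals gave 10 higher at 7-somite, and 2 values per mean gave 3 higher and 8 lower there. For the steps, no moderation left 12 rises from shield to tailbud in sphere-treated embryos, where equal totals left 6 falls and TMM factors 7. A minimum mean of 100 left 11 rises from tailbud to 7-somite in sphere-treated and 8 in epiboly-treated embryos. For shifts of the onset effect from tailbud to 7-somite, no moderation gave 2 upward and 0 downward, no trend 2 and 0, and 2 values per mean 7 upward. Except where fewer genes were tested, the cause was not tested. The shares of all genes called under these alternatives are not given here, so these counts have no background beside them. No paired analysis was possible because the table holds 1 mean per group and no replicate numbers, and for the same reason no replicate could be left out. The fit to the 6 means called 0 genes with and without the stage block.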
